A study of Mus musculus with 10 samples.

Results

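The genes described here are 40 components and regulators of mechanistic target of rapamycin complex 1 (mTORC1), chosen by gene symbol and found among the 22046 genes of the deposited table. All 40 had values in every library. They cover the complex itself, the inputs that switch it on or off, and the proteins it acts on. They were measured in cerebellum of Bmal1-/- mice (knockout) and their Bmal1+/+ littermates (wild type) on a C57BL/6 background, bred from heterozygous parents and kept under a light and dark cycle of 12 h each. BMAL1, the product of Arntl, is a clock protein that activates rhythmic genes. The knockout is in the whole animal, so no cell type of the cerebellum is singled out. The labels used here give no age, sex or hour of collection. Each lysate was split. RNase I digestion of one fraction left the fragments that ribosomes protect (footprints, cut from a gel at 28 to 34 nucleotides), and the rest gave total RNA.

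The table holds 8 libraries, of 2 knockout animals (numbered 1 and 3) and 2 wild-type animals (numbered 2 and 3), each with a footprint and a total RNA library. A further 2 total RNA libraries named in the labels were not analysed here. Whole reads could be recovered from the deposited RPKM values (reads per kilobase of gene, scaled to library size) for 13880 genes. They sum to 30.1 to 41.0 Mreads (1 Mread is 1000000 reads) in knockout footprints and 27.7 to 38.1 Mreads in wild-type footprints, and to 38.9 to 43.2 Mreads in knockout total RNA and 25.6 to 27.8 Mreads in wild-type total RNA. Both knockout total RNA libraries were therefore deeper than both wild-type ones. The series describes its libraries as biological replicates.

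mTORC1 is a protein kinase complex that couples growth to nutrients and growth signals. Growth factors act through AKT, which inhibits the TSC complex, a brake on the small GTPase RHEB, which activates the kinase. Amino acids act through the Rag GTPases and Ragulator on the lysosome surface, held back by GATOR1. Active mTORC1 phosphorylates S6 kinases and the 4E-BP proteins to raise translation, and ULK1 and TFEB to restrain autophagy and lysosome biogenesis. Much of its control is by phosphorylation, which neither RNA nor footprint levels measure.

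The deposited RPKM of different genes could not be set against each other, because the number of reads behind 1 RPKM bore no relation to gene length (Spearman -0.000182 across genes). RPKM is therefore compared only within a gene. For levels between genes, footprint reads were divided by coding length (GENCODE M21, build mm10) and expressed per Mread of the library, which is called footprint density here. A gene is called where limma, fitted on log2(RPKM + 1) over all genes, gave a Benjamini-Hochberg adjusted p under 0.05. Fold changes are log2 of knockout over wild type on that scale, and ± marks their standard error (SE). The scale understates the change of genes with a low RPKM, which need not have few reads. Akt1s1, for example, had 3.29 RPKM from 1376 reads in total RNA of knockout 1. The filter at 1 RPKM and the variance trend of limma used the same RPKM values.

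The targeted gene was measured first. Arntl had 267 and 272 RPKM of total RNA in knockout, against 179 and 179 RPKM in wild type. In footprints Arntl had 124 and 107 RPKM in knockout, against 258 and 295 RPKM in wild type. Its translational efficiency (TE, footprint RPKM over total RNA RPKM) was 0.463 and 0.393 in knockout, against 1.44 and 1.64 in wild type. The groups did not overlap in any of these measures. Arntl total RNA was higher in knockout by 0.59 ± 0.08 (adjusted p = 0.0158, limma), its footprints differed by -1.25 ± 0.14 (adjusted p = 0.0589), and its TE fell by 1.84 on the log2 scale (adjusted p = 0.0367). The deleted part of Arntl is not given in the sources used here, and reads were counted over the gene as a whole.

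Cerebellar markers were present in every library, and some cell-type markers differed between genotypes in total RNA. Over all genes tested in total RNA, limma called 4.09% (1.61% lower) and limma-voom 12.1% (5.88% higher and 6.25% lower). An unadjusted limma p under 0.05 was found for 22.1%, and 6759 of 12690 genes had a negative fold change. A few calls in a short list can lie near these shares. The summed level of 10 oligodendrocyte markers was 4048 and 3910 reads per Mread in knockout, against 6146 and 4528 in wild type, with a negative fold change in 7 of 10 markers and 1 called lower by limma, and with 5 lower and 1 higher by limma-voom. All 9 microglia markers tested had a negative fold change, with 2 called lower by limma and 6 of 10 by limma-voom, and the summed level of the list was 163 and 170 reads per Mread in knockout, against 226 and 231 in wild type. The 11 granule neuron markers summed to 8332 and 8322 in knockout and to 6765 and 7305 in wild type, with a positive fold change in 9 of 11, 2 called higher by limma and 5 by limma-voom. Choroid plexus markers summed to 1864 and 2204 in knockout, against 874 and 65.9 in wild type, with a positive fold change in 8 of 8 tested, 2 called higher by limma and 8 of 9 by limma-voom. limma called none of 11 Purkinje cell markers, though 10 of 11 had a negative fold change. They summed to 10336 and 11354 in knockout and 11559 and 12750 in wild type. None of 5 blood markers was called by limma. Unadjusted limma p-values were under 0.05 for 2 Purkinje markers and 1 blood marker, all lower in knockout, and limma-voom called the same numbers lower. limma called 1 of 7 interneuron markers lower, 2 of 10 astrocyte and Bergmann glia markers lower, 1 of 8 endothelial and mural markers higher, and 1 higher and 1 lower both of 8 meningeal and of 6 brainstem and midbrain markers. By limma-voom the counts were 2 interneuron markers lower, 3 astrocyte markers lower and 1 higher, 2 endothelial and mural markers lower and 1 higher, 1 meningeal marker lower and 2 higher, and 2 brainstem markers lower and 1 higher. The brainstem list had 2 markers at 0 in some total RNA library, and no other list had any. The part of these differences in the values of the pathway genes was not tested. Hoxa5, a hindbrain gene outside the cerebellum, had 1.39 and 1.57 RPKM in knockout, against 40.6 in wild type 2 and 0.727 in wild type 3. Wild type 2 thus stands apart in this gene. Wild type 3 stands apart in the choroid plexus marker Ttr. Its total RNA was 208 RPKM there, against 5390 in wild type 2 and 11753 and 13916 in knockout. In bulk tissue, fewer cells of a type and less RNA per cell cannot be told apart.

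Among the 40 genes limma called 1 in total RNA, Tfeb, which fell in knockout. That is 2.5% of the members, against 4.09% of the 12690 genes tested, of which 1.61% were called lower. The members' median log2 fold change was 0.06, and that of all genes tested was -0.02. Their median absolute change was 0.13, against 0.15 over all genes tested and 0.13 over genes with at least 400 recovered reads on average. At an unadjusted p under 0.05 there were 10 members (25%), 7 higher and 3 lower in knockout, where the share over all genes was 22.1% (10.7% higher and 11.4% lower). The knockout and wild-type libraries did not overlap for 28 members (70%), 17 higher and 11 lower, against 55.0% of all genes (24.7% higher and 30.3% lower). The 95% interval of the fold change lay within 0.5 of 0 on the log2 scale for 32 members and within 1 for all 40.

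**Figure D1:**
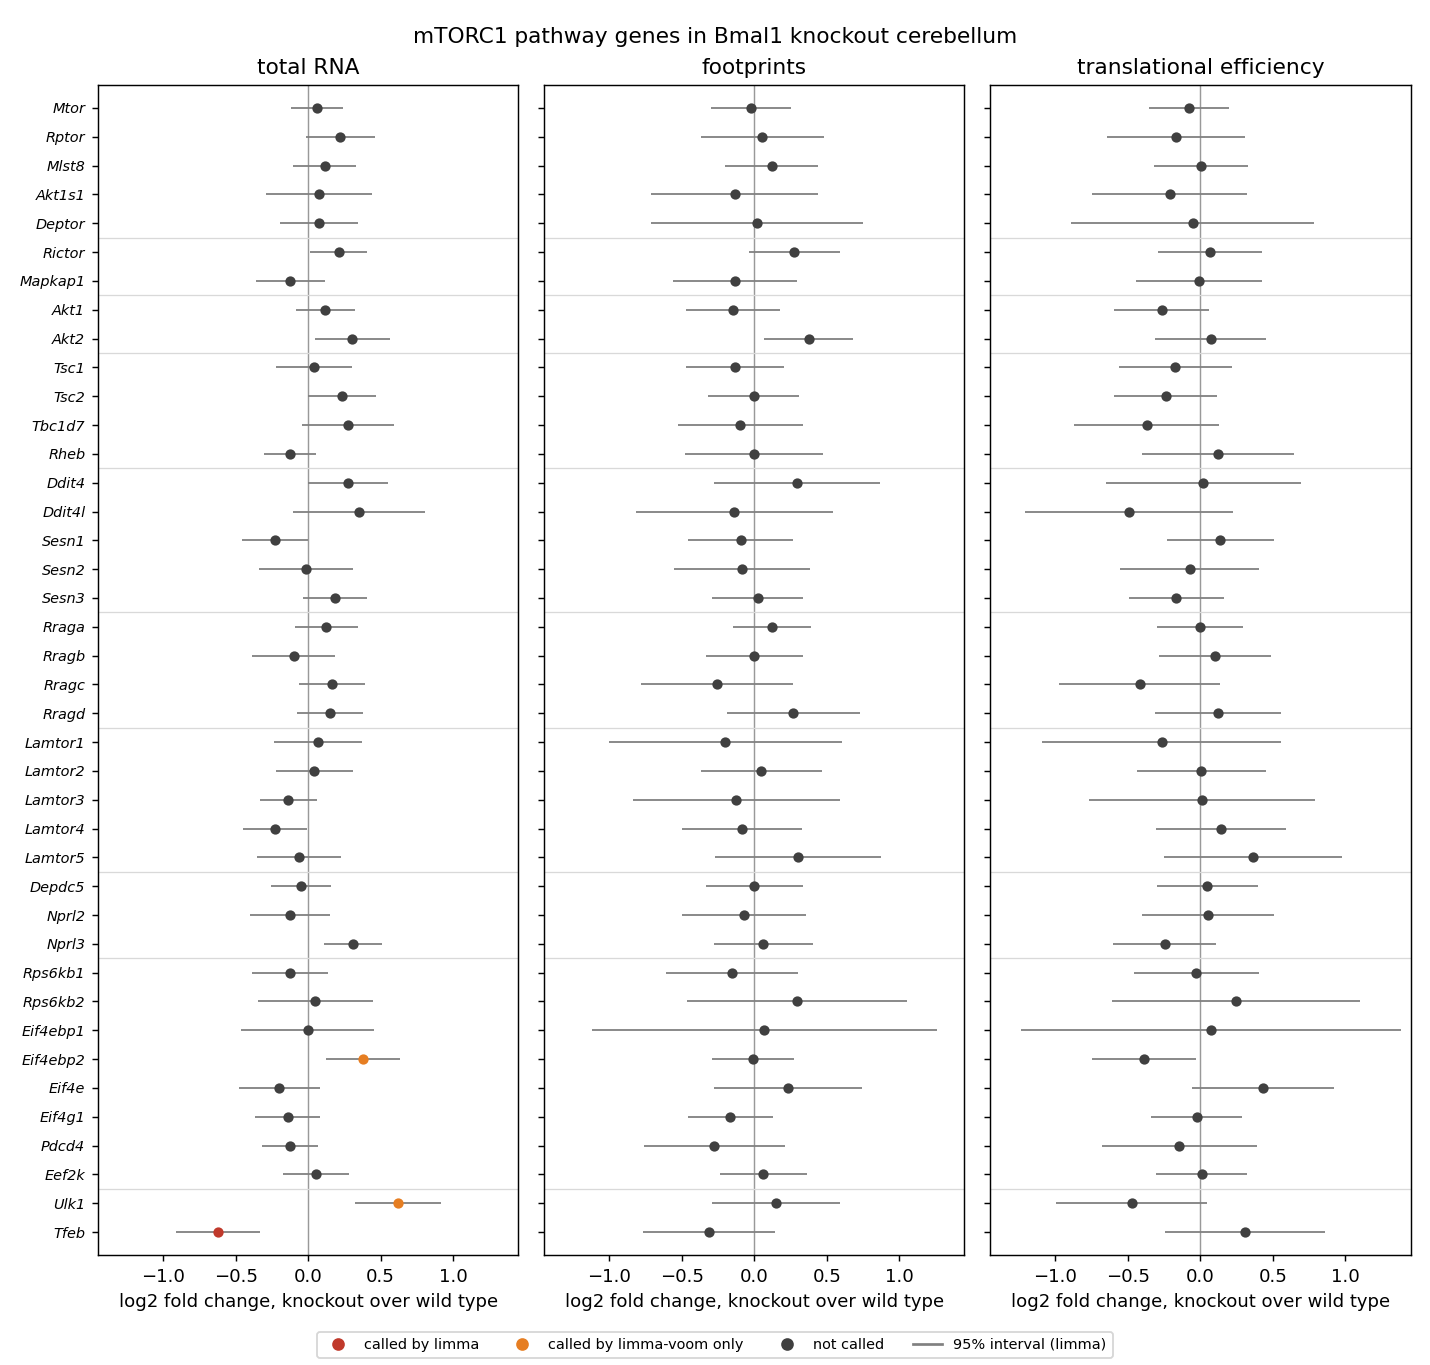
Log2 fold change of knockout over wild type (x axis) for 40 pathway genes (rows, grouped by role) in total RNA, footprints and translational efficiency; points are limma estimates, bars 95% intervals, n = 2 animals per genotype. Tfeb in total RNA is the 1 member called by limma, Ulk1 and Eif4ebp2 were called by limma-voom only, and no member was called in footprints or translational efficiency.

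In total RNA, Tfeb and Ulk1, targets of mTORC1 in lysosome and autophagy control, had the widest fold changes on the log2(RPKM + 1) scale. That scale narrows the change of genes with a low RPKM such as Ddit4l, whose mean was 1.39 RPKM in knockout and 0.854 RPKM in wild type. Tfeb (chr17:47737030-47792419, plus strand) encodes a transcription factor for lysosome and autophagy genes that mTORC1 keeps out of the nucleus. It had 98.5 and 112 RPKM in knockout, against 148 and 177 RPKM in wild type. Both knockout libraries were below both wild-type ones, and Tfeb fell by 0.62 on the log2 scale (SE 0.12, adjusted p = 0.0476, limma). At about the same fold its adjusted p was 0.157 with all libraries in one fit, 0.151 with no filter, 0.0786 with no variance trend, 0.0519 with a pseudocount of 0.1 and 0.0523 after quantile normalization, so each of these ended the call. It was 0.00592 by limma-voom on the recovered reads and 0.0178 among genes averaging at least 100 reads. Its footprints, 95.4 and 114 RPKM in knockout and 149 and 113 RPKM in wild type, overlapped between the genotypes. With 1 library left out at a time Tfeb stayed past the threshold only without wild type 2 (-0.75, adjusted p = 0.0438). Omitting knockout 1 gave -0.53 (adjusted p = 0.251), omitting knockout 3 gave -0.71 (adjusted p = 0.0905) and omitting wild type 3 gave -0.49 (adjusted p = 0.0821).

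Ulk1 (chr5:110784488-110810097, minus strand) encodes the kinase that starts autophagy and that mTORC1 inhibits. Its total RNA was 47.2 and 38.4 RPKM in knockout, against 27.8 and 26.9 RPKM in wild type. The groups did not overlap, and the difference of 0.62 ± 0.12 missed the threshold in limma (adjusted p = 0.0507) and passed it in limma-voom (adjusted p = 2.44e-04). Footprints of Ulk1 were 28.5 and 35.1 RPKM in knockout, against 25.8 and 31.3 RPKM in wild type, and overlapped.

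Eif4ebp2 (chr10:61428491-61452661, minus strand) encodes 4E-BP2, the 4E-BP form best known in brain, a repressor of cap-dependent translation that mTORC1 releases by phosphorylation. It had 1271 and 1047 RPKM of total RNA in knockout, against 878.5 and 893 RPKM in wild type. The groups were apart, with a difference of 0.38 ± 0.10 that limma did not call (adjusted p = 0.112) and limma-voom did (adjusted p = 0.0189). Without knockout 1 the difference was 0.24, and without knockout 3 it was 0.52. Footprints of Eif4ebp2 were 258 and 239 RPKM in knockout, against 256 and 243 RPKM in wild type, a difference of -0.01 ± 0.11 (adjusted p = 0.994, limma). The share of members that limma-voom called, 3 of 40 or 7.5%, was below its share over 13880 genes, 12.1%. It called 2 members higher, against 5.88% of genes, and 1 lower, against 6.25%. The part of cell composition, depth, wild type 2 or wild type 3 in these 3 differences was not tested beyond leaving libraries out.

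**Figure D2:**
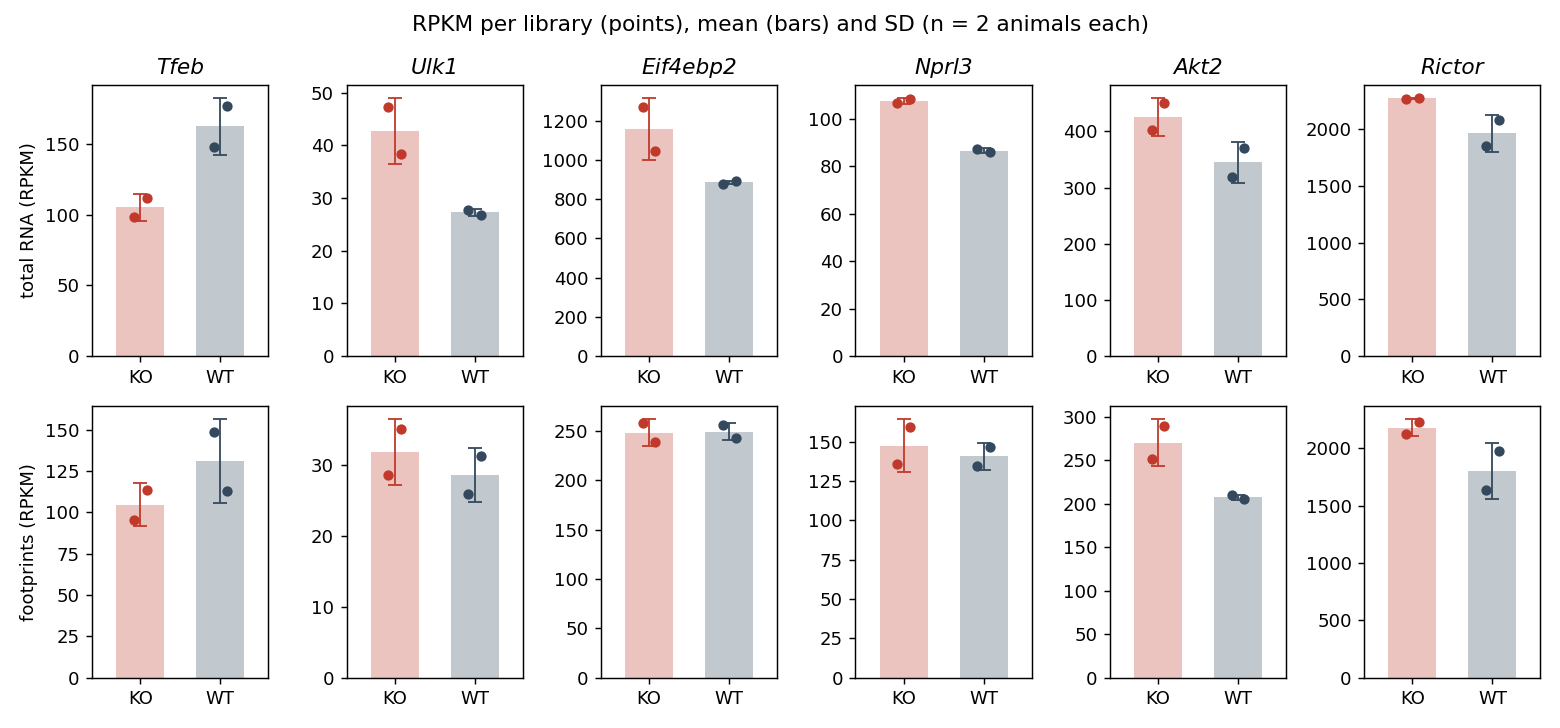
RPKM of 6 pathway genes in total RNA (top) and footprints (bottom); points are animals, bars the mean and whiskers the SD (n = 2 per genotype), each panel with its own axis from 0. Tfeb total RNA is lower in both knockout animals and Ulk1 and Eif4ebp2 total RNA is higher, while their footprints overlap between genotypes.

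BMAL1 with its partner CLOCK binds the E-box CACGTG, so the promoters of the genes above and of 2 others are shown. Each is the 250 bases before the transcription start in RefSeq (GRCm38.p6), 5′ to 3′ on the strand of the gene, with every CACGTG in capitals. For Tfeb the first listed start is shown.
Tfeb (chr17:47736787-47737036, plus strand): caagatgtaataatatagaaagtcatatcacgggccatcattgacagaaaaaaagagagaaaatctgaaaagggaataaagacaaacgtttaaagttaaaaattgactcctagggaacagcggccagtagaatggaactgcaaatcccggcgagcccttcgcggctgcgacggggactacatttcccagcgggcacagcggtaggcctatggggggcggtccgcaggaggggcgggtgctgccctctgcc
Ulk1 (chr5:110810082-110810331, minus strand): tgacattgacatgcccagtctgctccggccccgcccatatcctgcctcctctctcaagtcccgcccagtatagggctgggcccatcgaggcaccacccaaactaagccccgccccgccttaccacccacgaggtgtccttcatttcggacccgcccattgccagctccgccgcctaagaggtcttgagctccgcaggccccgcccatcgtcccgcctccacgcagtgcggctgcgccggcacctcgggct
Eif4ebp2 (chr10:61452670-61452919, minus strand): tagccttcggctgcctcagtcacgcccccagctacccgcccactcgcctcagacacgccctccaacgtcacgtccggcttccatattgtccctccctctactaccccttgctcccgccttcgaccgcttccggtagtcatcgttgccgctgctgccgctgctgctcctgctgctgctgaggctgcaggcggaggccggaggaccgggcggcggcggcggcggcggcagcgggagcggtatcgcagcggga
Rragb (chrX:153139708-153139957, plus strand): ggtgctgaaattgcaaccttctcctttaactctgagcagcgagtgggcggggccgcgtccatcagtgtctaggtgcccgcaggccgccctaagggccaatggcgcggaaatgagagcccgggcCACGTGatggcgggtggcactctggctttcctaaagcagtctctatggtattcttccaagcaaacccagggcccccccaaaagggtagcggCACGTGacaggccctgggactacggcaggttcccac
Lamtor4 (chr5:138255232-138255481, plus strand): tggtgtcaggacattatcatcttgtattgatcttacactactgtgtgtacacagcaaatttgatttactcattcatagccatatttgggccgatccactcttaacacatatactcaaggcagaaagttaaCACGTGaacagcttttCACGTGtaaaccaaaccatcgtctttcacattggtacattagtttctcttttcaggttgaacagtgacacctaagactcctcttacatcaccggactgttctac
The windows of Tfeb, Ulk1 and Eif4ebp2 held no CACGTG. Rragb and Lamtor4, which encode a Rag GTPase and a Ragulator subunit, held 2 each, the first bases of which lay 127 and 36 bases before the start in Rragb and 120 and 104 bases in Lamtor4. Eif4e, whose window is not shown, also held 2, at 228 and 64 bases.

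RefSeq windows were found for 36 members; Deptor, Rps6kb2, Eif4ebp1 and Lamtor3 had none in the table used. CACGTG, a palindrome and so the same on both strands, stood in 9 of the 36 (25%), against 6.86% of the 27025 genes with a window. They were Tbc1d7, Rheb, Eif4e, Eif4g1, Rragb, Rragc, Lamtor1, Lamtor4 and Eef2k. The 27025 genes were not limited to those expressed in cerebellum, as the members were, so the shares are not like for like. The members' windows had a median GC content of 59.4%, against 52.4% over all windows. Total RNA log2 fold changes of the 9 genes with CACGTG ran from -0.23 to 0.28 with a median of -0.10, and none was called. The 27 members without it ran from -0.62 to 0.62 with a median of 0.12, and 1 was called. The difference between these sets was not tested, and limma called 4.09% of all genes. A match in this window is a description of letters and not of binding by BMAL1 or any other protein.

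The complex itself showed no called change. Mtor (chr4:148448611-148557683, plus strand), the kinase, had 375 and 365 RPKM of total RNA in knockout, against 355 and 355 RPKM in wild type. The groups were narrowly apart and the difference was 0.06 ± 0.07 (95% interval -0.12 to 0.24, adjusted p = 0.683, limma), or 0.04 without knockout 1. Rptor, which encodes the scaffold RAPTOR that presents substrates, had 134 and 136 RPKM in knockout, against 108 and 124 RPKM in wild type, apart by 0.22 ± 0.10 (adjusted p = 0.251), and by 0.12 without wild type 2. Mlst8, a subunit shared with mTORC2, had 54.6 and 51.9 RPKM in knockout, against 47.9 and 50.2 RPKM in wild type. The genes of the inhibitory subunits, Akt1s1 (PRAS40) and Deptor, overlapped between genotypes. Akt1s1 had 3.29 and 3.42 RPKM in knockout, against 2.69 and 3.62 RPKM in wild type. Deptor had 333 and 320 RPKM in knockout, against 342 and 281 RPKM in wild type.

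None of the genes of the growth factor branch was called. Akt2, one of the AKT kinases upstream, had 402 and 450 RPKM of total RNA in knockout, against 319 and 371 RPKM in wild type, and the groups were apart (0.30 ± 0.11, adjusted p = 0.174, limma). Without wild type 2 the difference was 0.20. Its footprints, 251 and 289 RPKM in knockout against 210 and 206 RPKM in wild type, were apart in the same direction. Akt2 has a pseudogene in the annotation, Akt2-ps, that could share reads with it. Rictor, the defining subunit of mTORC2, the complex that phosphorylates AKT, had 2265 and 2272 RPKM in knockout, against 1847 and 2077 RPKM in wild type (0.21 ± 0.08, adjusted p = 0.201). Leaving wild type 2 out gave 0.13. Rictor footprints, 2125 and 2229 RPKM in knockout against 1632 and 1975 RPKM in wild type, did not overlap either. Akt1 had 149 and 142 RPKM in knockout, against 130 and 137 RPKM in wild type. Mapkap1 (SIN1, also of mTORC2) had 35.2 and 36.9 RPKM in knockout, against 41.1 and 37.5 RPKM in wild type.

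The TSC brake and its target RHEB were not called. Tsc2, the subunit that switches RHEB off, had 125 and 113 RPKM in knockout, against 96.7 and 105 RPKM in wild type, apart by 0.24 ± 0.10 (adjusted p = 0.225, limma). Rheb had 632 and 666 RPKM in knockout, against 694 and 720 RPKM in wild type, apart in the other direction by -0.12 ± 0.07 (adjusted p = 0.390). Tbc1d7, the smallest TSC subunit, had 6.95 and 5.73 RPKM in knockout, against 4.87 and 5.23 RPKM in wild type. Tsc1 overlapped, with 93.3 and 84.1 RPKM in knockout and 92.2 and 80.3 RPKM in wild type.

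None of the stress-induced inhibitors was called. Ddit4 (REDD1), which restores TSC activity under stress and glucocorticoids, had 300 and 331 RPKM in knockout, against 237 and 285 RPKM in wild type (0.28 ± 0.11, adjusted p = 0.224, limma). The difference was 0.15 without wild type 2, and 0.41 without wild type 3. Its relative Ddit4l had 1.75 and 1.04 RPKM in knockout, against 0.787 and 0.922 RPKM in wild type. These values came from as few as 40 reads in a total RNA library. Sestrins hold mTORC1 back through the GATOR proteins. Sesn1 had 19.3 and 20.0 RPKM in knockout, against 22.9 and 23.6 RPKM in wild type (-0.23 ± 0.09, adjusted p = 0.223). Sesn2 overlapped, with 3.13 and 3.34 RPKM in knockout and 2.98 and 3.58 RPKM in wild type. Sesn3 had 142 and 135 RPKM in knockout, against 127 and 115 RPKM in wild type.

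The amino acid branch held no call, and its unadjusted differences ran in both directions. Nprl3, a GATOR1 subunit (chr11:32225628-32267707, minus strand), had 107 and 108 RPKM in knockout, against 87.2 and 85.9 RPKM in wild type, apart by 0.31 ± 0.08 (adjusted p = 0.102, limma). Its exons overlap Mpg on the other strand, and whether counting used strand is not given in the sources used here. The other GATOR1 genes were Nprl2, with 5.00 and 5.41 RPKM in knockout against 5.78 and 5.72 RPKM in wild type, and Depdc5, which overlapped at 179 and 173 RPKM in knockout and 175 and 189 RPKM in wild type. Among the Ragulator genes, which anchor the Rag GTPases to the lysosome, Lamtor4 had 54.6 and 54.3 RPKM in knockout, against 61.1 and 66.9 RPKM in wild type (-0.23 ± 0.09, adjusted p = 0.221). Lamtor3 was also apart, with 122 and 117 RPKM in knockout and 133 and 131 RPKM in wild type, and the other Ragulator genes overlapped. Lamtor1 had 30.6 and 28.5 RPKM in knockout, against 25.4 and 31.2 RPKM in wild type. Lamtor2 had 9.80 and 9.53 RPKM in knockout, against 8.87 and 9.84 RPKM in wild type, and Lamtor5 had 4.36 and 4.77 RPKM in knockout, against 4.96 and 4.66 RPKM in wild type. Of the Rag GTPase genes, Rraga had 87.4 and 94.1 RPKM in knockout, against 80.6 and 85.4 RPKM in wild type. Rragc had 20.3 and 20.1 RPKM in knockout, against 17.8 and 18.05 RPKM in wild type, and Rragd had 37.2 and 34.2 RPKM in knockout, against 32.0 and 32.0 RPKM in wild type. Rragb overlapped, with 13.6 and 16.0 RPKM in knockout and 15.3 and 16.5 RPKM in wild type.

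Among the translation effectors other than Eif4ebp2 no gene was called by either tool. Rps6kb1, which encodes S6K1, had 10.99 and 11.96 RPKM in knockout, against 12.1 and 13.1 RPKM in wild type (-0.13 ± 0.11, adjusted p = 0.535, limma, and -0.07 without knockout 1 or without wild type 3). Rps6kb2 (S6K2) overlapped, with 2.405 and 2.12 RPKM in knockout and 1.80 and 2.55 RPKM in wild type. Eif4ebp1 overlapped at a low level, with 1.18 and 1.70 RPKM in knockout and 1.75 and 1.15 RPKM in wild type (-0.0037 ± 0.19, adjusted p = 0.994). Eif4e, the cap-binding protein that 4E-BPs block, had 5.26 and 4.755 RPKM in knockout, against 6.01 and 5.75 RPKM in wild type. Eif4g1, its scaffold partner, had 84.9 and 94.5 RPKM in knockout, against 99.5 and 98.2 RPKM in wild type. Pdcd4, an inhibitor of the helicase eIF4A that S6K marks for degradation, had 284 and 282 RPKM in knockout, against 320 and 298 RPKM in wild type. Eef2k, the kinase that slows elongation and that S6K inhibits, overlapped at 129 and 121 RPKM in knockout and 114 and 127 RPKM in wild type.

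Ribosome footprints gave no call among the pathway genes. No member was called by limma, where 0.233% of 12447 genes were called, and none by limma-voom, where 1.51% were. At an unadjusted limma p under 0.05 there was 1 member, Akt2 (0.37 ± 0.12, adjusted p = 0.379), against 10.4% of all genes (4.69% higher). The median log2 fold change was -0.0028 for members and -0.03 for all genes tested. Groups did not overlap for 12 members (30%), 7 higher and 5 lower in knockout, against 39.7% of all genes (17.1% higher and 22.6% lower). Intervals lay within 0.5 of 0 for 19 members and within 1 for 37.

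Mtor footprints were 363.1 and 392.3 RPKM in knockout, against 373.8 and 392.1 RPKM in wild type, and overlapped (-0.02 ± 0.11, adjusted p = 0.981, limma). Rptor had 100.0 and 132 RPKM in knockout, against 107 and 114 RPKM in wild type (0.06 ± 0.17, adjusted p = 0.961). Rheb ran from 1388 to 1893 RPKM in knockout, against 1453 to 1811 RPKM in wild type (-0.00088 ± 0.19, adjusted p = 0.999). Each of these groups overlapped, and so did Tsc2, with 156 and 172 RPKM in knockout and 157 and 172 RPKM in wild type (-0.0046 ± 0.13, adjusted p = 0.996). Rps6kb1 had 5.82 and 4.96 RPKM in knockout, against 6.35 and 5.85 RPKM in wild type, narrowly apart (-0.16 ± 0.18, adjusted p = 0.882). Eif4ebp1 had 2.37 and 0.325 RPKM in knockout, against 0.953 and 1.07 RPKM in wild type (0.07 ± 0.47, adjusted p = 0.985), with as few as 6 reads in a library. The 95% interval for Eif4ebp1, -1.12 to 1.26, is the widest of the 40 in footprints.

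Per coding length, the members spanned a wide range of footprint density. Rheb, the small GTPase, was the highest at 435 ± 92.2 footprint reads per coding kb per Mread in knockout and 431 ± 67.1 in wild type (SD, n = 2 each). Rraga followed at 220 ± 5.28 in knockout and 201 ± 7.25 in wild type. The kinase gene Mtor stood near the members' middle at 24.1 ± 1.46 in knockout and 24.2 ± 0.80 in wild type. The 4E-BP genes differed from each other by far more than their spread. Eif4ebp2 had 61.5 ± 2.98 in knockout and 61.5 ± 2.18 in wild type, against Eif4ebp1 at 2.33 ± 2.50 in knockout and 1.75 ± 0.15 in wild type, the lowest member. Tfeb was also low, at 7.03 ± 0.91 in knockout and 8.74 ± 1.70 in wild type.

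**Figure D3:**
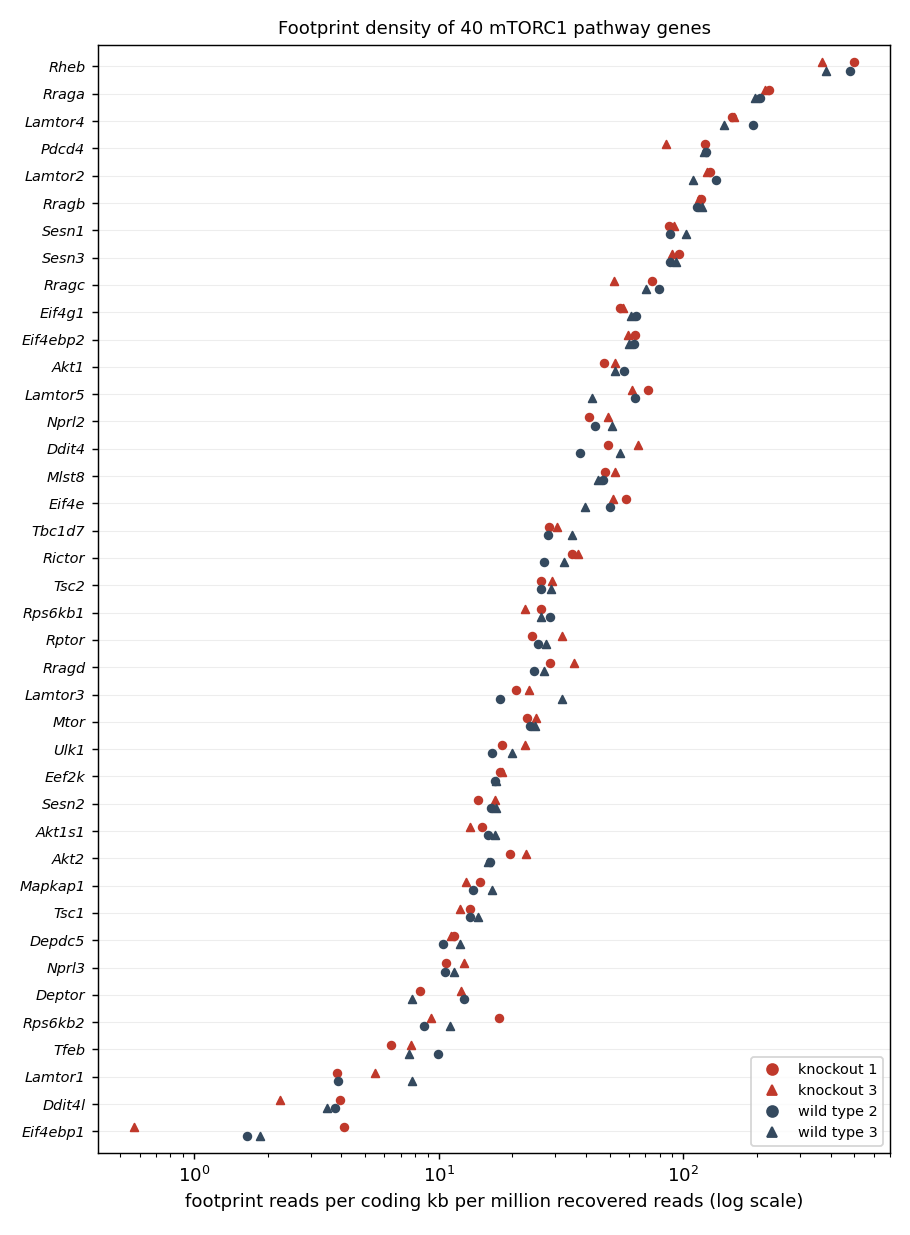
Footprint reads per coding kb per Mread of recovered reads (x axis, log scale) for 40 pathway genes ordered by the wild-type mean; each point is 1 animal. Rheb is highest at 435 in knockout and 431 in wild type, and Eif4ebp1 lowest at 2.33 in knockout and 1.75 in wild type.

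Translational efficiency of the pathway was not called for any member. limma called 0 of 40 members and 0.0165% of 12089 genes, and limma-voom called 0 members and 0.0072% of genes. With the animal as a block limma called 1 gene in place of 2 and again 0 members. At an unadjusted limma p under 0.05 there was 1 member, Eif4ebp2, against 4.55% of all genes (2.63% lower). The median log2 change in TE was -0.0065 for members and -0.02 for all genes. Groups did not overlap for 14 members (35%), 3 higher and 11 lower in knockout, against 31.8% of all genes (14.3% higher and 17.5% lower). Intervals were within 0.5 of 0 for 13 members and within 1 for 36, so moderate changes were not detectable for many of them.

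Eif4ebp2 had a TE of 0.203 and 0.228 in knockout, against 0.291 and 0.273 in wild type. The groups were apart, by -0.39 ± 0.15 (unadjusted p = 0.0373, adjusted p = 0.997, limma). The total RNA and footprint values given above are the parts of this ratio, so it is no further measurement. Ulk1 had a TE of 0.605 and 0.914 in knockout, against 0.93 and 1.17 in wild type. Eif4e was apart in the other direction, with 0.907 and 0.879 in knockout and 0.680 and 0.565 in wild type.

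The core genes were not called in TE either. Mtor had 0.967 and 1.08 in knockout, against 1.05 and 1.11 in wild type (-0.08 ± 0.12, adjusted p = 0.997, limma). Rptor had 0.744 and 0.971 in knockout, against 0.988 and 0.922 in wild type (-0.17 ± 0.20, adjusted p = 0.997). Rheb and Rps6kb1 overlapped between genotypes, with 0.12 ± 0.23 for Rheb and -0.03 ± 0.18 for Rps6kb1 (both adjusted p = 0.997). Tsc2 was apart, with 1.25 and 1.52 in knockout and 1.63 and 1.64 in wild type (-0.24 ± 0.15, adjusted p = 0.997). Eif4ebp1 ranged from 0.192 to 2.01 in knockout, against 0.545 to 0.937 in wild type (0.07 ± 0.56, adjusted p = 0.997).

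The ratio itself ranged widely over the members. Rraga was the highest at 4.53 and 4.03 in knockout, against 4.52 and 4.06 in wild type. Lamtor1 was the lowest at 0.062 and 0.094 in knockout, against 0.075 and 0.122 in wild type, and its exons overlap Lrrc51 on the other strand. A ratio above 1 in all 4 animals was seen for 16 members and one below 1 for 18. The members' median was 0.953 and 0.943 in knockout, against 0.997 and 1.02 in wild type, and that of all genes tested was 0.934 and 0.953 in knockout, against 0.960 and 0.956 in wild type. Total RNA covers untranslated regions and footprints mostly do not, so the level of the ratio also depends on how much of a transcript is coding.

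**Figure D4:**
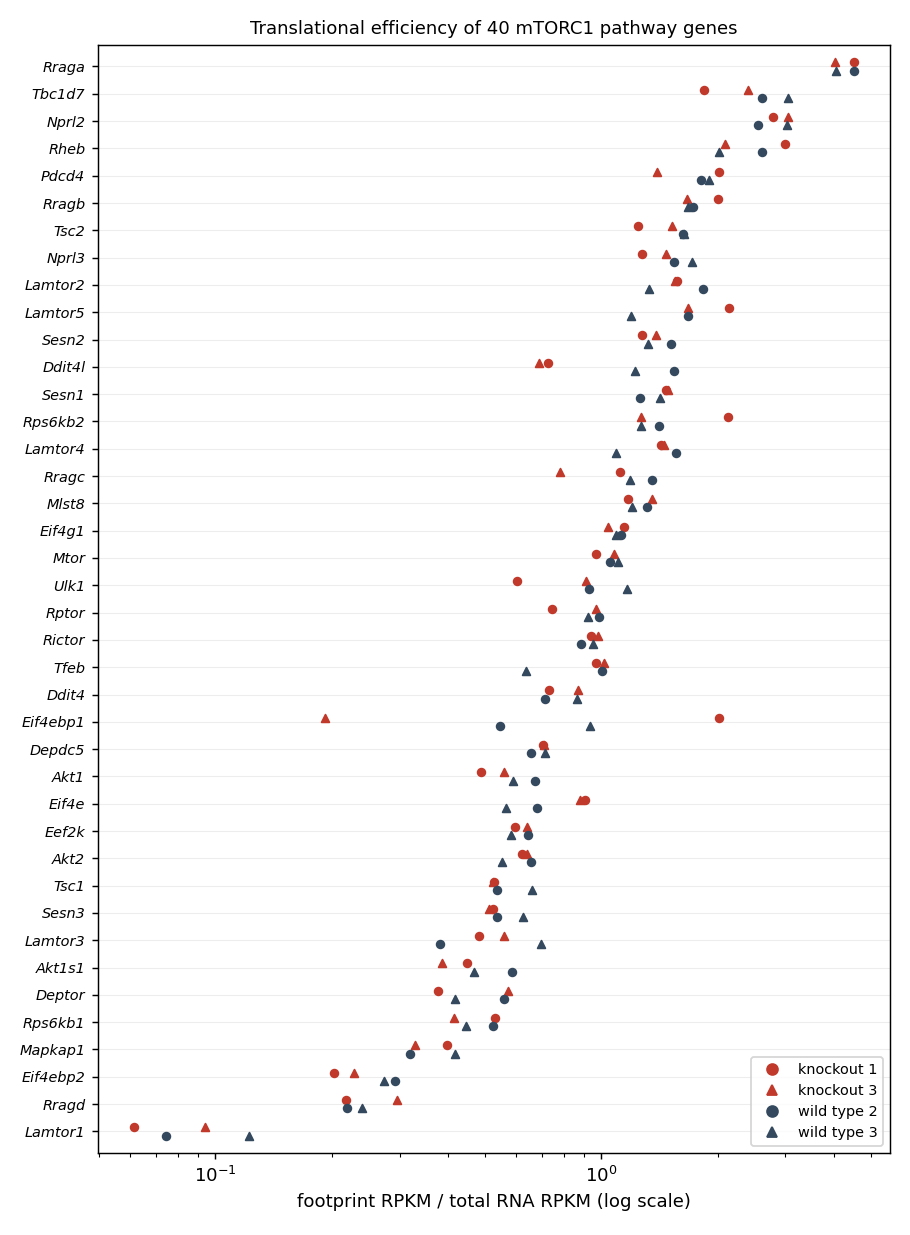
Footprint RPKM over total RNA RPKM (x axis, log scale) for 40 pathway genes ordered by the wild-type mean; each point is 1 animal. Rraga lies at 4.53 and 4.03 in knockout and 4.52 and 4.06 in wild type, Lamtor1 at 0.062 and 0.094 in knockout and 0.075 and 0.122 in wild type, and Eif4ebp2 is lower in both knockout animals.

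Further genes of the pathway were read from a list of 54 that holds none of the 40. Of 53 further mTORC1 pathway genes tested in total RNA, limma called 1 higher in knockout and none lower, where it called 4.09% of all genes, and 6 higher and 4 lower had an unadjusted p under 0.05, where 22.1% of all genes did. The called gene was Irs2, an adaptor of the insulin receptor, with 184 and 196 RPKM in knockout, against 138 and 122 RPKM in wild type (0.54 ± 0.10, adjusted p = 0.0401). limma-voom called 4 of the 53 higher and 4 lower, where it called 5.88% of all genes higher and 6.25% lower. The lower ones included Grb10, which encodes an inhibitor of insulin signalling, with 7.15 and 7.57 RPKM in knockout, against 11.7 and 10.8 RPKM in wild type. The list's median log2 fold change was 0.04 in total RNA, -0.02 in footprints and -0.10 in TE, with none called by limma or limma-voom in footprints or TE. At an unadjusted limma p under 0.05 there were 2 higher and 2 lower in footprints, against 10.4% of all genes. In TE there were 1 higher and 2 lower, against 4.55% of all genes.

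Genes downstream were also examined. None of 30 lysosome and autophagy genes known as TFEB targets was called by limma in total RNA. An unadjusted p under 0.05 was found for 3 of the 30, where it was found for 22.1% of all genes. Galns was higher by limma-voom. The median log2 fold change of these genes was 0.03 in total RNA, -0.04 in footprints and -0.05 in TE. Neither tool called any in footprints or TE. An unadjusted limma p under 0.05 was reached by 2 in footprints and 0 in TE, against 10.4% and 4.55% of all genes. Of 22 mRNAs with a 5′ terminal oligopyrimidine tract other than ribosomal protein mRNAs, whose translation is known to depend on mTORC1, Vim fell in total RNA, with 79.1 and 84.3 RPKM in knockout against 135 and 139 RPKM in wild type (-0.74 ± 0.09, adjusted p = 0.0119, limma). Vim was the 1 of the 22 that limma called, where it called 4.09% of all genes (1.61% lower). An unadjusted limma p under 0.05 in total RNA was found for 3 of the 22, all lower, against 22.1% of all genes. The median log2 change of the 22 in TE was -0.0055, with 0 called by either tool. In TE 1 had an unadjusted limma p under 0.05, against 4.55% of all genes. In footprints limma called 0 of the 22 and 0.233% of all genes. There limma-voom called only Vim, lower in knockout, and 1.51% of all genes. An unadjusted limma p under 0.05 was found for 2 of the 22, against 10.4% of all genes. Eef2 and Eif4b are on both this list and that of further pathway genes.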

How the data were processed

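Footprints and total RNA of cerebellum from 2 Bmal1-/- and 2 Bmal1+/+ animals were compared. The authors' deposited table gives RPKM per gene and library, and a further deposited table gives the footprint to total RNA ratio, which equals the ratio of the RPKM values within 2% in 47790 of 47790 values. Bowtie, STAR, Cufflinks and build mm10 are named per the submitters' processing notes, and their roles and versions are not given in the sources used here. Reads were recovered from the steps of low RPKM values and the authors' mean read count, taken as a geometric mean, since 99.9% of 4392 values of low genes then fell within 0.1 of a whole number and 19.4% under an arithmetic mean.

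The test was limma 3.58.1 under R 4.3.3, run with its variance trend on log2(RPKM + 1) of genes averaging 1 RPKM or more, with all p-values Benjamini-Hochberg adjusted over the genes tested. TE was tested as the genotype by library-kind interaction. limma-voom on the recovered reads was an alternative. Other alternatives were all libraries in one fit, no filter, an average of at least 100 reads, no variance trend, a pseudocount of 0.1, quantile normalization, the replicate block and leaving out each animal. For TE, leaving out an animal removed both its footprint and its total RNA library. The scripts were tested on simulated data. Promoters came from RefSeq GRCm38.p6 and gene models from GENCODE M21, which matched all 40 members, 37 with the same span as the table. Exons of 13 members overlap another gene.

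The members and all gene lists (other mTORC1 pathway genes, TFEB targets, terminal oligopyrimidine mRNAs and cell type markers) were chosen with earlier results of these data known. All 40 members were named. Fold changes are given for members with an unadjusted limma p under 0.05, those called by limma-voom, and Mtor, Rptor, Rheb, Tsc2, Rps6kb1, Eif4ebp1 and Eif4ebp2. Of the lists, called genes were named, except for some that are not reported here. Footprints and total RNA with the same number come from the lysate of 1 animal, per the labels. Their deviations from the group means correlated across 12089 genes at -0.0040 in knockout and 0.26 in wild type.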

Additional observations from a re-analysis of the deposited data

How the results depend on the processing

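With 2 animals per genotype, counts of calls depended on the settings. In total RNA the 519 genes called became 217 with all libraries in one fit, 1684 by limma-voom, 798 with an average of at least 100 reads, 26 with no filter and 117 to 563 with 1 library left out. The 1 member called there became 3 by limma-voom, 2 with an average of at least 100 reads (Tfeb and Ulk1), 0 with one fit, no filter, no variance trend, a pseudocount of 0.1 or quantile normalization, and 0 to 1 with 1 library left out. Over the alternatives the adjusted p ran from 0.00592 to 0.251 for Tfeb, from 2.44e-04 to 0.281 for Ulk1 and from 0.0189 to 0.519 for Eif4ebp2. In footprints the 29 genes became 315 with one fit, 210 by limma-voom, 57 with an average of at least 100 reads, 1 with no filter, 17 with a pseudocount of 0.1 and 1 to 6 with 1 library left out. In TE the 2 genes became 1 by limma-voom, 0 with no filter, no variance trend or quantile normalization, and 5 with a pseudocount of 0.1. The count of members called in footprints and in TE was 0 in every setting run. The cause of these moves was not tested.

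With the animal as a replicate block, limma called 1 gene and 0 members in TE. Knockout and wild-type animals were not paired with each other, because the labels give each animal only a number and link none across genotypes.

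Of 325 fold changes of single genes under alternatives, 286 kept their direction and side of the threshold, 8 lost the threshold, 3 gained it and 28 changed sign. Eif4ebp1 total RNA was 0.023 under quantile normalization and -0.18 to 0.17 with 1 library left out. Footprint log2 fold changes under quantile normalization were 0.022 for Mtor, 0.020 for Tsc2, 0.026 for Rheb and 0.027 for Eif4ebp2, and by limma-voom 0.0043 for Tsc2, 0.010 for Rheb, 0.0029 for Eif4ebp2 and -0.0054 for Eif4ebp1, which was -0.12 with a pseudocount of 0.1. With 1 library left out, footprints ran from -0.076 to 0.035 for Mtor, -0.14 to 0.26 for Rptor, -0.076 to 0.066 for Tsc2, -0.22 to 0.22 for Rheb and -0.063 to 0.048 for Eif4ebp2, and from -0.25 to -0.06 for Rps6kb1 with no change of sign. TE of Eif4ebp1 was -0.11 with a pseudocount of 0.1. With both libraries of 1 animal left out, TE ran from -0.36 to 0.025 for Rptor, -0.14 to 0.38 for Rheb, -0.18 to 0.13 for Rps6kb1 and -0.15 to 0.90 for Eif4ebp1. TE kept its sign and moved by over 1.5 times for Mtor, from -0.16 to -0.0033, and for Tsc2, from -0.38 to -0.10.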
